A study of Homo sapiens with 4 samples.

Results

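LINC genes are long noncoding RNA genes that carry a symbol made of LINC and a number, assigned to transcripts lying between protein-coding genes when no function was known. All rows of the deposited gene table with such a symbol and at least 200 counts summed over its 4 libraries were taken. This gave 91 genes of 489 LINC rows, in a table of 35211 genes. The sum was itself a measured value, so the choice favours expressed genes and lets a gene that is high in 1 cell line pass on that line alone. The members just inside the threshold were LINC00894 with 200 counts, LINC00886 with 201 and LINC00265 with 203. The rows just outside were LINC00174 with 198, LINC01355 with 191 and LINC01186 with 190. Of the 398 rows left out, 305 had at most 49 counts and 174 had at most 9, and the 91 members held 91.0% of all counts given to LINC rows.

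RNA was sequenced after ribosomal RNA depletion in 4 libraries, 1 for each group: PC3 cells with a circ0003553 overexpression plasmid, PC3 cells with a negative control plasmid, DU145 cells with the circ0003553 plasmid and DU145 cells with the control plasmid. PC3 and DU145 are established human prostate cancer lines, PC3 from a bone metastasis and DU145 from a brain metastasis, and all 4 groups had been transfected with a plasmid. The titles of the samples name RCAN3 for both plasmids and do not name this circular RNA. The labels do not say how long after transfection the cells were collected or whether the libraries came from separate cultures, so p-values measure only the spread between these libraries, which may be technical.

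Long intergenic noncoding RNAs are transcribed by RNA polymerase II, capped, usually spliced and polyadenylated like messenger RNAs. They are as a rule less abundant than messenger RNAs and more often limited to particular cell types, and many are degraded in the nucleus by the RNA exosome. Some act on the gene next to them, some act elsewhere in the cell, some encode small proteins that were recognised later, and many have no known role.

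Library totals were 39488890 counts in PC3 with circ0003553, 33438509 in PC3 control, 36461229 in DU145 with circ0003553 and 38047428 in DU145 control. Counts of RCAN3 were 3798 in PC3 with circ0003553 against 1212 in PC3 control, and 816 in DU145 with circ0003553 against 639 in DU145 control. Counts per gene hold reads of circular and linear transcripts together. The epithelial markers KRT8, KRT18, KRT19, KRT7 and EPCAM lay at 29.6 RPKM (counts scaled to gene length and library total) or more in every library. The remaining marker of that list, CDH1, stood at 0.443 and 0.407 RPKM in PC3, against 11.0 and 20.5 RPKM in DU145. STAT3, which PC3 is known to lack, had 6 and 2 counts in the PC3 libraries and 6160 and 7479 in the DU145 libraries. The prostate transcription factor HOXB13 had 32.4 and 36.3 RPKM in PC3, against 0.0158 and 0 RPKM in DU145. PTPRC, the defining leukocyte marker, had at most 2 counts in any library, while CD68, a lysosomal protein on the same list, had 235 and 195 RPKM in PC3, against 125 and 92.3 RPKM in DU145.

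The 91 LINC genes took 0.117% and 0.121% of all counts in the PC3 libraries with circ0003553 and with control plasmid, against 0.0713% and 0.0720% in the corresponding DU145 libraries. A single gene, LINC01468, held 34.0% and 33.4% of the members' counts in PC3, against 0.169% and 0.113% in DU145. Without LINC01468, LINC00261 and LINC00839, the members' share of each library was 0.0626% and 0.0642% in PC3, against 0.0712% and 0.0719% in DU145. The higher share in PC3 thus rested on these 3 genes, and without them the PC3 share was the lower one. All 3 came almost wholly from PC3, and genes held mainly by DU145 were kept. The lower PC3 share therefore follows in part from which genes were removed.

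Per length, most members were scarce. Their RPKM averaged over the 4 libraries ranged from 0.199 to 171 with a median of 1.36. The median was 4.28 RPKM over 12342 protein-coding genes and 2.60 RPKM over 553 other long noncoding genes, both chosen by the same 200 counts. At least 1 RPKM was reached by 52 members and at least 10 RPKM by 4. The highest mean was that of LINC01468 at 171 RPKM, followed by LINC00342 at 24.4, LINC00839 at 10.9, LINC00857 at 10.3, LINC00843 at 9.86, LINC00261 at 9.42, LINC00680 at 6.88 and LINC00707 at 6.40 RPKM. LINC00839, LINC00857, LINC00843 and LINC00261 followed each other closely, and the ranges of their 4 libraries overlapped. A mean hides the line: of these 8 genes, LINC01468, LINC00839, LINC00261 and LINC00707 came almost wholly from 1 line.

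A gene was called restricted to a line when 95% or more of its scaled CPM (counts relative to library size), summed over the 4 libraries, lay in the libraries of that line. By this description 11 of 91 LINC genes (12.1%) were restricted to PC3 and 5 (5.49%) to DU145. The corresponding shares were 2.34% and 2.35% of protein-coding genes, 3.62% and 3.25% of other long noncoding genes, and 2.36% and 2.44% of all 16039 genes with 200 counts. Among all genes those with few counts were restricted more often, so the shares were also taken over genes with under 1000 of them, a range chosen after seeing the data. There, 8 of 59 LINC genes (13.6%) were restricted to PC3 and 3 (5.08%) to DU145, against 6.13% and 6.13% of protein-coding genes, 5.17% and 4.86% of other long noncoding genes, and 4.86% and 4.97% of all genes. In that range only the share restricted to PC3 lay above those of the other classes, and the DU145 share lay between them. These shares are descriptions, with no test.

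**Figure D1:**
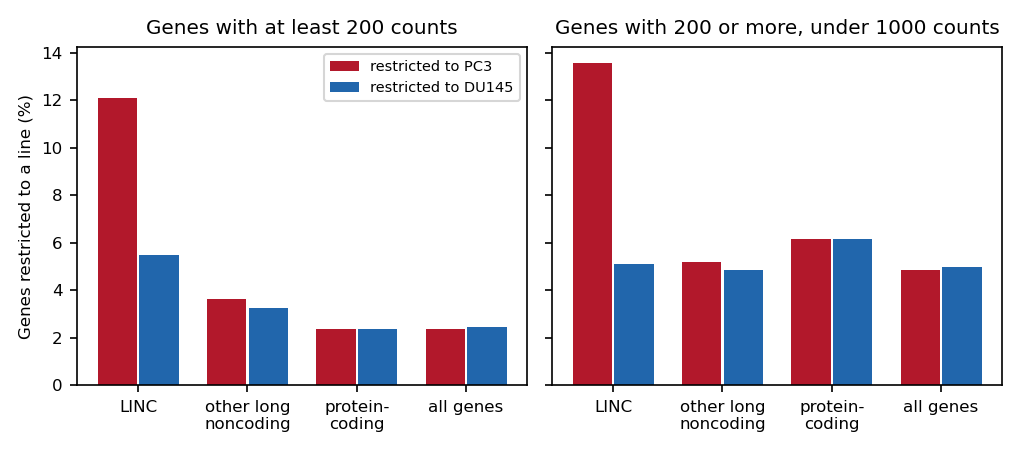
Share of genes restricted to PC3 (red) or DU145 (blue), in percent, among LINC genes, other long noncoding genes, protein-coding genes and all genes, for genes with at least 200 counts (left) and for those of them with under 1000 (right). The LINC share restricted to PC3, 12.1% on the left and 13.6% on the right, stands above the other bars, while the LINC share restricted to DU145 falls to 5.08% on the right, near those of the other classes.

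LINC01468 was the most abundant member. RefSeq names it LNCAROD, for an RNA that activates DKK1, a secreted inhibitor of Wnt signalling. It lies at chr10:52450874-52470533 on the minus strand (hg38), has 5 exons and shares no exon base with another gene of the table. LINC01468 had 338 RPKM in PC3 with circ0003553 and 344 RPKM in PC3 control, against 1.03 and 0.692 RPKM in DU145 with circ0003553 and control. Both PC3 libraries stood far above both DU145 libraries. Summed over the libraries of each line, LINC01468 was 419-fold higher in PC3, with a 95% counting interval of 334 to 533. DKK1, its nearest protein-coding gene at 132831 bases, had 48.8 and 40.1 RPKM in PC3, against 11.5 and 10.4 RPKM in DU145.

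LINC00261 is an RNA known from endoderm differentiation, where it is expressed with its neighbour FOXA2, a forkhead transcription factor of endodermal tissues. It lies at chr20:22547671-22578642 on the minus strand, 2362 bases from FOXA2. LINC00261 had 3801 counts (17.3 RPKM) in PC3 with circ0003553 and 3774 (20.3 RPKM) in PC3 control, against 4 and 0 counts in DU145 with circ0003553 and control. Its summed level was 2032-fold higher in PC3 (interval 793 to 7460). FOXA2 followed the same division, with 29.5 and 26.7 RPKM in PC3, against 0.421 and 0.444 RPKM in DU145. For FOXA2 the fitted log2 change of PC3 over DU145 was 6.08 ± 0.15 (SE, 2 libraries a line; adjusted p = 1.77e-13, Benjamini-Hochberg adjustment, edgeR's quasi-likelihood test).

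LINC00839, at chr10:42475543-42495336 on the plus strand, had 1984 counts in PC3 with circ0003553 and 1715 in PC3 control. No count fell on it in either DU145 library, where the floor of 3 counts per library makes it at least 662-fold higher in PC3. In RPKM it stood at 21.5 and 21.9 in the PC3 libraries. LINC01446 had 173 and 134 counts and LINC01550 had 185 and 122 counts in PC3, and both were at 0 in DU145, each at least 54.9-fold higher in PC3. These 3 genes were the members with no count at all in DU145.

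The other 6 genes restricted to PC3 kept a trace in DU145. LINC01605 had 347 and 338 counts in PC3, against 6 and 0 in DU145. LINC00944 had 219 and 167 counts in PC3, against 2 and 2 in DU145. LINC00632 gives rise to the transcript from which the circular RNA CDR1as is made. Its annotated transcripts match 789 bases of CDR1 fully, which may be the same stretch of the genome and not a copy. In the deposited table these genes share no exon base, and CDR1 had 8 and 6 counts in PC3, against 0 and 0 in DU145. LINC00632 had 158 and 122 counts in PC3, against 4 and 2 in DU145. LINC01234 had 148 and 137 counts in PC3, against 5 and 6 in DU145. LINC00887 had 149 and 87 counts in PC3, against 4 and 4 in DU145. LINC01444 had 258 and 228 counts in PC3, against 4 and 17 in DU145. In all 11 genes both PC3 libraries stood above both DU145 libraries.

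**Figure D2:**
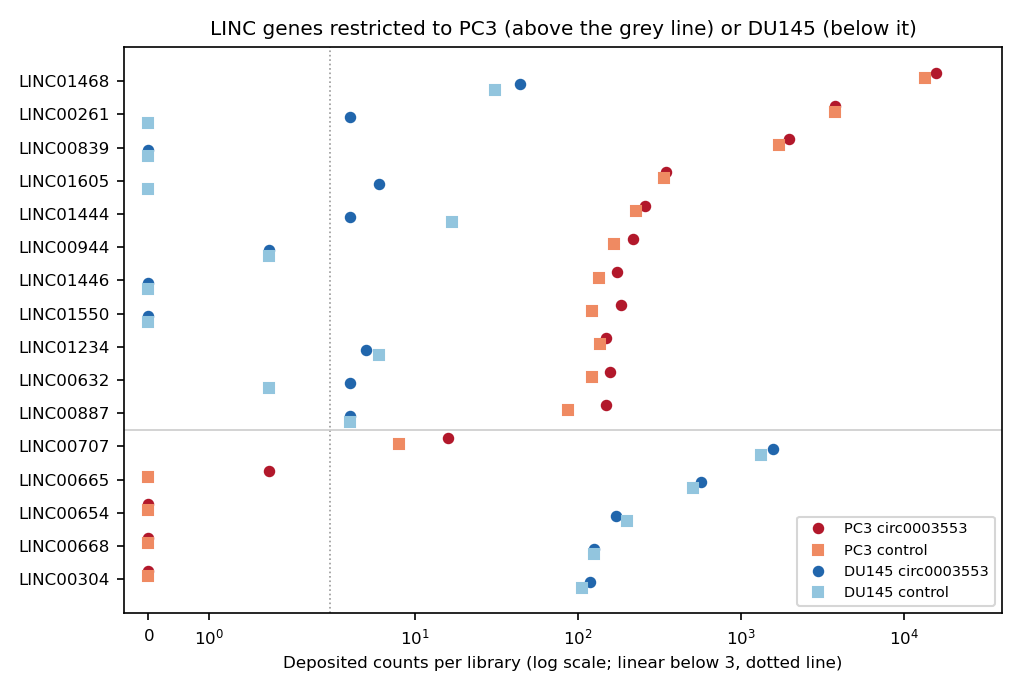
Deposited counts of each LINC gene restricted to PC3 (above the grey line) or DU145 (below it), one point per library, on a horizontal log scale that is linear below 3 counts. LINC00261, for example, has 3801 and 3774 counts in PC3 and 4 and 0 in DU145, and 6 genes have no count in either library of the other line.

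LINC00707 had the highest level per length of the members restricted to DU145, and the smallest fitted line change of these 5. It lies at chr10:6779598-6842906 on the plus strand and had 16 and 8 counts in PC3, against 1565 in DU145 with circ0003553 and 1334 in DU145 control. Its level was 0.132 and 0.0779 RPKM in PC3, against 14.0 and 11.4 RPKM in DU145, and its summed level was 113-fold lower in PC3 (interval 75.5 to 176). The nearest protein-coding gene, PRKCQ, encodes protein kinase C theta and lies 199296 bases away. PRKCQ was at 0 in both PC3 libraries, against 1.75 and 1.55 RPKM in DU145.

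LINC00665, at chr19:36313067-36331718 on the minus strand, had 2 and 0 counts in PC3, against 566 and 510 in DU145, and has been described mostly as an RNA raised in tumours. Its summed level was 501-fold lower in PC3 (interval 138 to 4145). It shares 515 nearly identical bases with LINC01535, so part of its counts could have been split. LINC00654, LINC00668 and LINC00304 had no count in PC3. LINC00654 shares 1496 nearly identical bases with AL121757.1, and LINC00668 shares 12.2% of its exon bases with SCML2P1 on the other strand. Part of the counts of LINC00654 and LINC00668 could thus belong to those genes or have been split with them. In DU145 with circ0003553 and control, LINC00654 had 172 and 200 counts, LINC00668 had 125 and 126, and LINC00304 had 119 and 106. Against the floor of 3 counts per library these were at least 57.8-fold, 39.0-fold and 34.9-fold lower in PC3.

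The nearest protein-coding genes of the 8 members with the highest and of the 8 with the lowest fitted line change were read beside them. On the PC3 side 6 neighbours could be tested and all 6 were called higher in PC3. They were FOXA2, DKK1, ZNF703 next to LINC01605, ZNF33B next to LINC00839, SEC61G next to LINC01446 and VRK1 next to LINC01550. Their fitted log2 changes spread widely, at 6.08, 2.09 and 3.37 for FOXA2, DKK1 and ZNF703 but 0.51, 0.87 and 0.67 for ZNF33B, SEC61G and VRK1, the last 2 at distances of 940318 and 993887 bases. On the DU145 side 7 neighbours could be tested. PRKCQ, ZFP14 next to LINC00665 and ANKRD10 next to LINC00346 were called lower in PC3. GPCPD1 next to LINC00654, ARHGAP28 next to LINC00668 and SAMD11 next to LINC01128 were called higher in PC3, against the direction of their LINC gene, and ACSF3 next to LINC00304 was not called. Of all 21731 genes tested, 33.1% were called higher and 32.9% lower in PC3.

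Promoter sequences (RefSeq, GRCh38.p14) were available for 75 of the 91 members, as windows from 250 bases before to 50 bases after the annotated start. Shown here are the windows of 6 restricted genes, chosen as the 3 with the most counts for each line among the 8 most extreme line changes. LINC00707 has more counts than the 3 of DU145 but no window in the table. The windows are shown because the base composition of restricted genes differed between the lines. Each is printed 5′ to 3′ on the strand of the gene, and capitals mark 4 motifs searched on either strand. The first is TATAAA of the TATA box. The second, CCAAT, names its own box. The third is GGGCGG, the core of the GC box, and the last is TGTTTAC, a core of forkhead motifs. The first 3 belong to genes restricted to PC3 and the last 3 to genes restricted to DU145.
LINC01468, chr10:52470484-52470783, minus strand: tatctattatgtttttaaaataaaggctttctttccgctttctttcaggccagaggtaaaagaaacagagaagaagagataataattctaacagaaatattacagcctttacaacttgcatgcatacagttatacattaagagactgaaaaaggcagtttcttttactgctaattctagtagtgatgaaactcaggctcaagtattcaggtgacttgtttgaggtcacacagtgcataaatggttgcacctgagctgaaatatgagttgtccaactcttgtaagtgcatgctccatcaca
LINC00261, chr20:22578593-22578892, minus strand: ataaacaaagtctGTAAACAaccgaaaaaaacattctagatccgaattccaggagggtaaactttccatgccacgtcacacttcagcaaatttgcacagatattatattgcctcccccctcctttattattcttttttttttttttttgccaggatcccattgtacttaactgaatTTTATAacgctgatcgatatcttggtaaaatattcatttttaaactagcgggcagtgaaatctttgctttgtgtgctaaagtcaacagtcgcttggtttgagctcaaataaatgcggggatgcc
LINC00839, chr10:42475241-42475540, plus strand: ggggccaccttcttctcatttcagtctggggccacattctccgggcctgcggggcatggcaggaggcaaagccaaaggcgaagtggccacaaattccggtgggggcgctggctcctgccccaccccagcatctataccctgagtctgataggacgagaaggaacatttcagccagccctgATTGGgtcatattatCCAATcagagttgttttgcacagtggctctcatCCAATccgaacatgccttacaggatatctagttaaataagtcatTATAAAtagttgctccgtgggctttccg
LINC00665, chr19:36331669-36331968, minus strand: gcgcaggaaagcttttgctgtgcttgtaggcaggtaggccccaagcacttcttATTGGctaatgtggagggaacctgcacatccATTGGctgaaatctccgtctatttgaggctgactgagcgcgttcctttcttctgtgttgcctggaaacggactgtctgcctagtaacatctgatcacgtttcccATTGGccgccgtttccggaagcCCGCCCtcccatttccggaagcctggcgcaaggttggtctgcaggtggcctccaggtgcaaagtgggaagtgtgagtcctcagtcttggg
LINC00654, chr20:5504547-5504846, minus strand: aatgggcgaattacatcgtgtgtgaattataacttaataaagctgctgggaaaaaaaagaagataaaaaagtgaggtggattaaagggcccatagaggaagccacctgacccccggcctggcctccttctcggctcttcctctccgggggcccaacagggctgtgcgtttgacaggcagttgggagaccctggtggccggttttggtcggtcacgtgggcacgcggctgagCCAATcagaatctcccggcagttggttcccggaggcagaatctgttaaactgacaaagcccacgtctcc
LINC00668, chr18:6929820-6930119, minus strand: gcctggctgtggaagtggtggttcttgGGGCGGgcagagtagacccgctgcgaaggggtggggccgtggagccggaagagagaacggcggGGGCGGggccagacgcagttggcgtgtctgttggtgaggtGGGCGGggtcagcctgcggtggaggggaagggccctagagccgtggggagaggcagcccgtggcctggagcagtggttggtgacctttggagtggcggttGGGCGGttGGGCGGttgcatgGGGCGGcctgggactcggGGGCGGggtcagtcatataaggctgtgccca

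The windows of LINC01468 and LINC00261 are rich in A and T, with a GC content of 36% and 37%, and the one of LINC01468 holds none of the 4 motifs. LINC00261 has a forkhead motif 237 bases before the start and a TATA box motif 74 bases before it, both on the opposite strand. LINC00839 holds 3 matches to the CCAAT box, the first 70 bases before the start, and a TATA box motif 22 bases after it. Here the start is that of RefSeq, and the whole window lies before the start of LINC00839 in the deposited table. Among the genes restricted to DU145, LINC00665 has 3 CCAAT boxes and 1 GC box core, and LINC00668 has 7 GC box cores at a GC content of 69.3%. LINC00654 has a single CCAAT box, 19 bases before the start.

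Over all members with a window, the median GC content was 46.0% in the 8 genes restricted to PC3 (range 36% to 52.7%), 55.8% in the 4 restricted to DU145 and 62.7% in the 63 found in both lines. The median over 35116 RefSeq promoters was 58.7%. All 8 windows of PC3-restricted genes lay under that median. The GC box core occurred in 0 of 8 windows restricted to PC3, 2 of 4 restricted to DU145 and 33 of 63 (52.4%) in both lines, against 45.0% of all RefSeq promoters. The observed over expected ratio of CpG dinucleotides had a median of 0.271 in the PC3-restricted genes, 0.580 in the DU145-restricted and 0.786 in those of both lines. Medians of GC and CpG content were thus highest in the genes found in both lines. TATAAA was found in 2 of the 8 PC3-restricted windows and in 11.5% of all promoters. The forkhead motif was found in 2 of the 8 and in 3.42% of all promoters. The CCAAT box occurred in 34.7% of LINC windows and in 34.6% of all promoters. These are descriptions of few windows, and the members entered by their levels in these libraries.

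**Figure D3:**
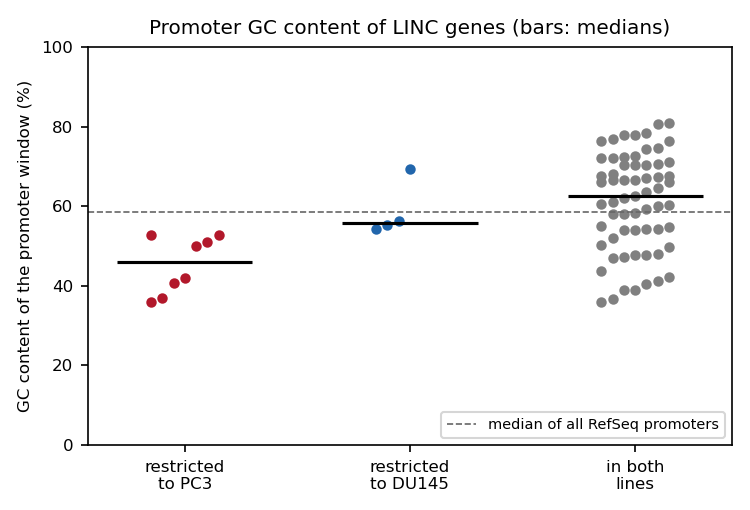
GC content, in percent, of the 300-base promoter window of each LINC gene with a RefSeq promoter, for genes restricted to PC3, restricted to DU145 or found in both lines; black bars are medians and the dashed line is the median of all RefSeq promoters. The PC3-restricted genes lie at 36% to 52.7%, all under the dashed line at 58.7%, while the genes of both lines spread over it.

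Outside the restricted genes, many members were shifted between the lines by smaller amounts. In the additive fit of line and plasmid, 66 of 91 members were called between PC3 and DU145 at an adjusted p of 0.05, against 66% of all 21731 genes tested and 70.8% of the 16039 with at least 200 counts. Of these members 39 were higher in PC3 and 27 lower. The count of calls was therefore near the background. More of the members were far apart: 23 members (25.3%) were called and at least 4-fold apart, 16 higher and 7 lower in PC3, against 12.3% of protein-coding genes, 17% of other long noncoding genes and 12.8% of all genes with 200 counts. The median size of the fitted log2 change, without regard to sign, was 0.99 in LINC genes, 0.63 in protein-coding and 0.75 in other long noncoding genes. These classes were not matched for counts. Under 1000 counts were held by 59 of 91 members, 2592 of 12342 protein-coding genes and 329 of 553 other long noncoding genes. Whether the larger line changes hold at like counts was not tested.

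**Figure D4:**
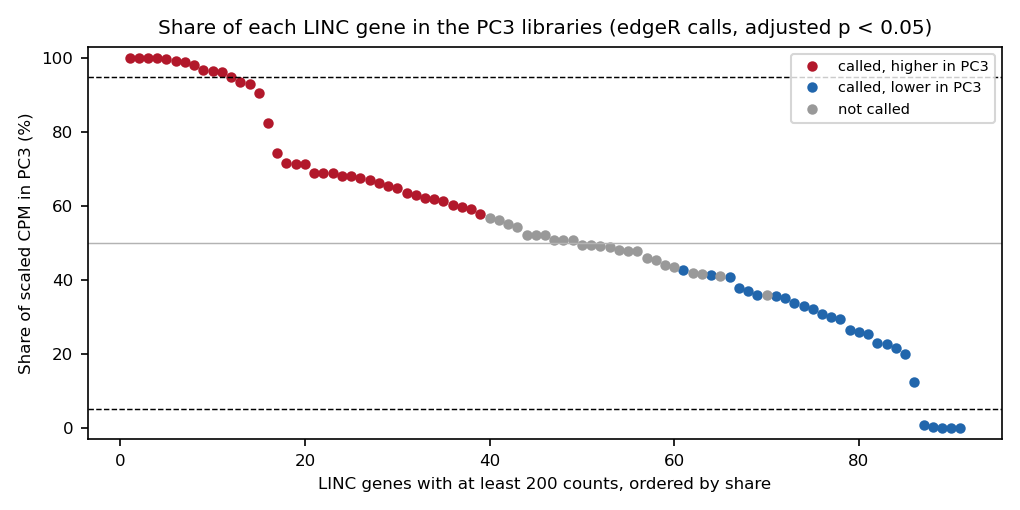
Share of each LINC gene's scaled CPM that lies in the PC3 libraries, in percent, with the 91 genes ordered by share; colours give the edgeR call between lines and dashed lines mark 95% and 5%. The 11 and 5 restricted genes lie at the ends, and the 25 genes not called lie between 36% and 56.7%, with called genes among them.

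Among members that were not restricted, LINC00973 had 10.8 and 9.67 RPKM in PC3, against 1.65 and 0.574 RPKM in DU145, a fitted log2 change of 3.29 ± 0.27 (SE; adjusted p = 5.7e-08, Benjamini-Hochberg adjustment, edgeR's quasi-likelihood test). LINC01116 had 1.58 and 1.86 RPKM in PC3, against 0.0923 and 0.177 RPKM in DU145. LINC01137, named LITATS1 in RefSeq for an inhibitor of TGF-beta signalling, lies 140 bases from ZC3H12A, which encodes the RNA-degrading immune regulator Regnase-1. LINC01137 had 2.94 and 1.61 RPKM in PC3, against 0.531 and 0.490 RPKM in DU145. ZC3H12A had 15.2 and 12.5 RPKM in PC3, against 1.44 and 2.05 RPKM in DU145, so both genes of the pair were higher in every PC3 library.

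Of 11 members picked because they are known from cancer studies, 3 were called higher and 5 lower in PC3, and 3 were not called. Of all genes with 200 counts, 36% were called higher and 34.7% lower, so this count is near the background. LINC00346, named PRECSIT in RefSeq for a p53-regulated RNA that activates STAT3, had 0.162 and 0.115 RPKM in PC3, against 0.954 and 1.07 RPKM in DU145 (log2 change −2.78 ± 0.26). LINC00963, first described in prostate cancer cells that no longer need androgen, had 2.51 and 2.31 RPKM in PC3, against 5.57 and 6.25 RPKM in DU145 (log2 change −1.22 ± 0.11). For LINC00511, which has been reported to bind EZH2, the log2 change was −1.48 ± 0.18, and for LINC00467 it was −0.83 ± 0.12. LINC00857 went the other way, with 14.6 and 13.0 RPKM in PC3, against 7.14 and 6.34 RPKM in DU145. For all 5 the ranges of the lines did not overlap and edgeR's quasi-likelihood test called them.

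Other members were near equal in both lines, with 15 of 91 at fitted line changes within 0.25 of 0 on the log2 scale. LINC00152 (CYTOR in RefSeq, for a regulator of the cytoskeleton) had 3.99 and 3.52 RPKM in PC3, against 4.35 and 4.28 RPKM in DU145, where its log2 change of −0.13 ± 0.13 was not called (adjusted p = 0.396, Benjamini-Hochberg adjustment, edgeR's quasi-likelihood test). It has 3 near-identical copies, among them MIR4435-2HG with 2237 identical bases, so its counts may hold those of the copy. LINC00969 had 2.54 and 2.60 RPKM in PC3, against 2.61 and 2.64 RPKM in DU145, and LINC00662 had 0.926 and 0.924 RPKM in PC3, against 1.11 and 0.921 RPKM in DU145. LINC01138 had 0.322 and 0.228 RPKM in PC3, against 0.376 and 0.654 RPKM in DU145, and missed the threshold at an adjusted p of 0.0516 by the same edgeR test.

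Some symbols of the class are no longer noncoding in RefSeq, which lists 6 members as protein-coding and 84 as long noncoding, with LINC01296 not matched. Under their RefSeq symbols, LINC00116 is MTLN (mitoregulin of mitochondria), LINC01420 is NBDY (of P-bodies), LINC00998 and LINC00493 are the membrane proteins SMIM30 and SMIM26, LINC00094 is BRD3OS and LINC01125 is C2orf92. LINC00998 had 4.19 and 4.54 RPKM in PC3, against 2.57 and 3.52 RPKM in DU145, and was called higher in PC3, as were LINC01420 and LINC00493. LINC00116, LINC00094 and LINC01125 were not called. None of these was restricted to a line. In all, 23 members carry another symbol in RefSeq.

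In the genome the members lay on 22 chromosomes, with at most 9 on 1 chromosome, and had a median exonic length of 3306 bases. Despite the name, 17 overlapped their nearest protein-coding gene and 6 started or ended within 1000 bases of it, while 20 lay over 100000 bases away. The median gap was 15988 bases. An exon base was shared with another gene of the table in 45 members (49.5%), against 48.9% of protein-coding genes and 84.1% of other long noncoding genes, and in 14 members the shared part reached 20%. Reads there can belong to either gene, since the strand setting of the counting is not given in the sources used here. A near-identical copy of at least 300 bases at 95% identity was found for 24 members, of which LINC01106 and LINC01123 match each other over 2267 bases. The 24 include LINC00632, whose full match to CDR1 may be the same stretch of the genome and not a copy.

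The study's own comparison was of the circ0003553 plasmid with the control plasmid. No LINC gene was called across the lines, 0 of 91 at an adjusted p of 0.05 by edgeR's quasi-likelihood test, against 0.465% of all genes tested. Among genes with 200 counts the shares called were 0.599% of all genes, 0.624% of protein-coding and 0.362% of other long noncoding genes. At an unadjusted p under 0.05 there were 7 members (7.69%), 4 higher and 3 lower with circ0003553, against 8.88% of all genes tested and, with 200 counts, 10.3% of all, 10.1% of protein-coding and 9.58% of other long noncoding genes. DESeq2 called 0, gave 60 members no adjusted p and had 0 at an unadjusted p under 0.05, and limma-voom called 0 and had 5. Over all genes tested these 2 methods called fewer, 62 with DESeq2 and 26 with limma-voom, against 101 with edgeR. Among members the lowest adjusted p was 0.363, in a fit with 1 residual degree of freedom.

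The member with that value was LINC00641, which had 1.42 RPKM with circ0003553 against 2.16 RPKM with control plasmid in PC3, and 1.74 against 2.14 RPKM in DU145. Its fitted log2 change was −0.44 ± 0.15 (SE; unadjusted p = 0.0108). LINC00941 went the other way, at 2.99 against 2.22 RPKM in PC3 and 2.11 against 1.30 RPKM in DU145, with a log2 change of 0.55 ± 0.20 and an adjusted p of 0.393 in the same edgeR test. LINC01588 had 322 counts with circ0003553 against 205 with control plasmid in PC3, and 257 against 195 in DU145 (log2 change 0.44 ± 0.17). In these 3 genes both lines moved the same way, and none passed the adjusted threshold. LINC01547 and LINC00707, next in p with LINC00342, also had the same direction in both lines, with log2 changes of −0.31 ± 0.13 and 0.36 ± 0.16.

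LINC00342, the second most abundant member per length, had 15.4 RPKM with circ0003553 against 25.1 RPKM with control plasmid in PC3, a ratio of 0.605 (95% counting interval 0.567 to 0.645), and 28.4 against 28.7 RPKM in DU145, a ratio of 1.02 (0.969 to 1.08). The counting intervals do not overlap, but each comes from 1 library per plasmid, and a difference between the lines cannot be tested in this design. LINC00342 has 2 near-identical copies among the annotated transcripts.

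Within a line, ratios of 1 circ0003553 library to 1 control library were counted where the line held at least 50 counts. In PC3, 0 of 86 members were 2-fold higher and 0 were 2-fold lower, against 0.824% and 0.334% of all such genes. LINC01521 came nearest, with 44 counts against 18, a log2 ratio of 0.96 after adding a prior count of 2. Next came LINC01137, with 162 counts with circ0003553 against 75 with control plasmid, at 0.83. LINC01125, LINC00887, LINC00476 and LINC01138 lay between 0.45 and 0.52. At the low end LINC00342 and LINC00997 stood at −0.72, LINC00641 at −0.63, and LINC00265, LINC01128 and LINC00106 between −0.54 and −0.49. In DU145, 1 of 78 members was 2-fold higher and 1 was 2-fold lower, against 1.03% and 0.992% of all such genes. The higher one was LINC00973, with 58 counts with circ0003553 against 21 with control plasmid, a ratio of 2.97 (1.77 to 5.15). In PC3 the same gene had 410 against 311 counts, a ratio of 1.10. The lower one was LINC00987, with 25 against 59 counts in DU145, a ratio of 0.455 (0.273 to 0.738), and 75 against 75 counts in PC3. It shares 29.9% of its exon bases with genes on the other strand and stayed within 2-fold with halved counts or a prior count of 5. The other high log2 ratios in DU145 were 0.80 for LINC00920, 0.78 for LINC00704 (MANCR, an RNA named for mitosis), 0.73 for LINC00941, 0.58 for LINC01468 and 0.50 for LINC01588. The other low ones were −0.88 for LINC01534, −0.74 for LINC01138, −0.52 for LINC00648, −0.43 for LINC01420 and −0.42 for LINC00493. LINC01138 thus had opposite directions in the lines, from 50 against 30 counts in PC3 and 54 against 98 in DU145.

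**Figure D5:**
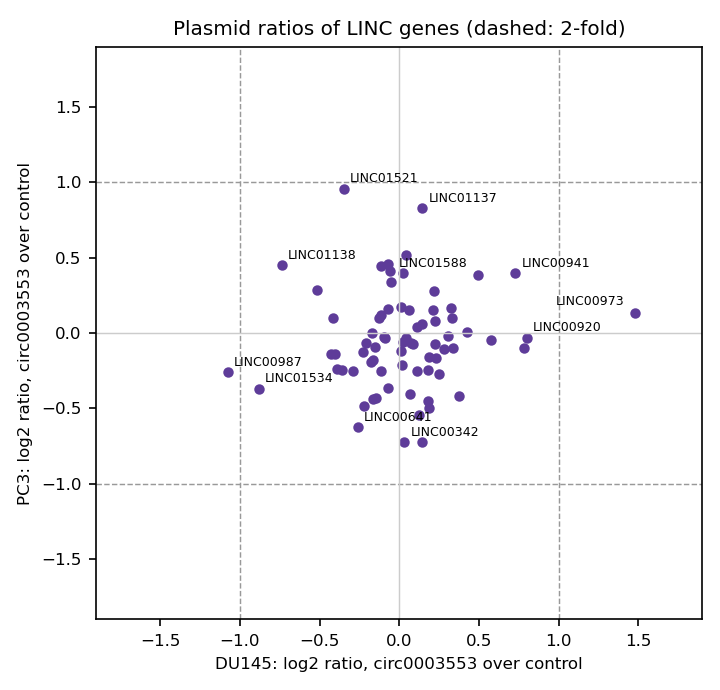
Log2 ratio of circ0003553 over control plasmid of each LINC gene with at least 50 counts in both lines, in PC3 (vertical) and DU145 (horizontal), with dashed lines at 2-fold. Most of the 73 genes lie within 2-fold in both lines, and LINC00973 and LINC00987 pass 2-fold in DU145 alone.

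Of the 73 members with 50 counts in both lines, 36 had ratios of the same direction in both (49.3%), against 56.0% of all such genes. None of these members was 1.5-fold apart in the same direction in both lines, and among all 15044 such genes 79 were higher and 25 lower by that measure, so such genes were rare overall. The median log2 ratio was −0.07 in PC3 and 0.02 in DU145. None of the 6 protein-coding neighbours within 1000 bases of a member was called between plasmids. Of all genes tested 0.465% were called, so no call among 6 is near the background. Neighbours that overlap a member were left out of this count. CHD2, a chromatin remodeller 487 bases from LINC01578 (CHASERR, an RNA known to repress CHD2), had a log2 change of 0.37 ± 0.10 with an adjusted p of 0.21, and LINC01578 had 0.11 ± 0.13.

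Genes that process or degrade long noncoding RNAs, or encode their chromatin partners, were not called between plasmids by edgeR's test. Only 0.465% of all genes tested were called, so no calls in lists of this size is near the background. This was so for 21 genes of the nuclear exosome and its adaptors, 14 of the Integrator complex, 13 of cleavage, polyadenylation and termination, 5 of cap binding and 12 of PRC2 and chromatin partners. In the same fit 18 of 20 interferon-stimulated genes rose with circ0003553, with a list median of 1.87 on the log2 scale, against 0.00 over all genes tested, and 13 were called with DESeq2. That list was chosen with this response known and is no independent evidence of it. Between the lines, 5 of the 21 exosome genes were called higher and 10 lower in PC3, with a median log2 change of −0.22. Over all genes tested 33.1% were called higher and 32.9% lower, so the number of calls in the list is near the background. Among them PAPD5, a poly(A) polymerase that marks nuclear RNA for decay, had 2.49 and 2.28 RPKM in PC3, against 8.05 and 6.34 RPKM in DU145. CPSF1, the largest subunit of the cleavage and polyadenylation factor, went the other way at 37.5 and 34.0 RPKM in PC3, against 7.55 and 6.84 RPKM in DU145.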

How the data were processed

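RNA was extracted with TRIzol, depleted of ribosomal RNA and made into stranded libraries with molecular identifiers, per the labels' protocols. The submitters' processing notes list the build hg38 and, with no role or order, featureCounts, edgeR 3.12.1, Trimmomatic 0.36 and Subread 1.5.1. Whole-number counts were deposited for each gene, and the RPKM the authors deposited equal those counts per length and per library total. Not given in the sources used here are the aligner, the strand setting and any collapsing of identifiers. Columns were matched to samples by name, NC as control and RCAN3 as overexpression plasmid. Of values from 1 to 20, 70.3% to 75.3% were even, so counting intervals are too narrow if a read pair was counted as 2, and counts were also halved.

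Lines and plasmids were tested by quasi-likelihood in an additive fit of both (edgeR 4.0.16, R 4.3.3), with TMM scaling (factors 0.984, 0.967, 1.01 and 1.04 for PC3 circ0003553, PC3 control, DU145 circ0003553 and DU145 control), and low counts filtered by plasmid. Benjamini-Hochberg adjustment ran over 21731 genes, at a threshold of 0.05. The line is the block, from the labels, and 1 residual degree of freedom remains, to which moderation across genes adds a prior of 13.4. The script was tested on simulated data, where it called 60% of 100 genes changed 2-fold between plasmids and 91% of 100 changed 4-fold. The simulation gave all genes the same dispersion, so recovery among members with few counts may differ. Within a line there is no replicate, so ratios carry exact conditional binomial (Clopper-Pearson) 95% intervals, which, like the floor of 3 counts per library (0.0759 to 0.0928 scaled CPM), cover counting error only. DESeq2 1.42.0 and limma 3.58.1 were alternatives. Biotypes came from GENCODE 29 and RefSeq, and near copies from minimap2 2.31.

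The members and gene lists were chosen with earlier results of these data known. Named genes were those with the lowest plasmid p (6), the 6 highest and lowest plasmid ratios per line, the 8 highest and lowest line changes, the 8 highest mean RPKM, members known from the literature, and neighbours. The restricted genes outside these, LINC00969, LINC01106, LINC01123, the level of LINC00973 and the members encoding small proteins were named after their values were seen.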

Additional observations from a re-analysis of the deposited data

How the results depend on the processing

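No LINC gene was called between plasmids under any of the alternatives run, DESeq2, limma-voom, other scalings, halved counts and no low-count filter among them. It was also 0 with no replicate block, a fit of plasmid that ignores the pairing by line. Several of these could hardly have called a member. Over all genes, no replicate block called 0 of 21731 and no low-count filter 9 of 35211. The number was 26 for limma-voom, against 101 in the main fit. The fit of line without plasmid called 63 members between lines. On the same members DESeq2 called 45 between lines, 26 higher and 19 lower in PC3, against 66, 39 and 27 in the main fit. Counts of members moved by over 1.5 times mainly where the alternative changed which genes were counted. With genes sharing no exon base, 33 of 46 members were called between lines, 20 higher and 13 lower in PC3. With a minimum of 100 summed counts it was 102, of which 51 lower in PC3, and with 500 it was 38, of which 22 higher and 16 lower. Members restricted to PC3 numbered 7 at a share of 99%, 20 at 100 counts and 5 at 500 counts. Those restricted to DU145 numbered 11 at 100 counts, 2 at 500, 3 among genes sharing no exon base and 3 with under 1000 counts, a range chosen after seeing the data. Except for the range under 1000 counts, no shares over all genes are given here for line calls or restricted members under these alternatives. These numbers, those with the minima of 100 and 500 counts included, thus have no background beside them. Whether the lower number of line calls with DESeq2 is particular to the members was not tested.

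Past 1.5-fold in place of 2-fold, 2 members were higher and 3 lower with circ0003553 in PC3, and 4 higher and 3 lower in DU145, while past 4-fold there were 0 and 0 in DU145. With a prior count of 0.5, 1 member was 2-fold higher in PC3. The single lower member of DU145, LINC00987, was lost with a prior count of 5, halved counts, genes sharing no exon base or 200 counts in the line (0 in each), and with 20 counts there were 2. With 200 counts in the line the higher one, LINC00973, was lost too (0). Shares over all genes are not given here for these settings of the plasmid ratios. Alternatives were followed gene by gene only for part of the named LINC genes. Covered were plasmid changes of the members with the lowest plasmid p and line changes of the members highest and lowest in line change. The highest and lowest plasmid ratios per line were covered too. These 312 values all kept their direction and, where tested, their side of the threshold. Line calls of other named members, LINC00963, LINC00511, LINC00857, LINC00973 and LINC01138 among them, were not followed in this way. No library could be left out, since each group holds 1 and no residual degree of freedom would remain. Depth limits the low genes: 13 members had under 50 counts in DU145 and 5 in PC3.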
